A study of Mus musculus with 2 samples.

Results

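Melanoma-like cell barcodes were examined in single-cell RNA libraries of CD45+ cells sorted from B16-F10 tumours. A barcode, the tag shared by the RNA of 1 droplet, was included when it had at least 1000 UMIs (unique molecular identifiers, each standing for 1 captured transcript), at least 300 genes and at most 10% mitochondrial UMIs, when Pmel, Mlana, Dct and Tyrp1 together made at least 20 of every 10000 UMIs, and when Cd3d, Cd3e and Cd3g together had at most 3 UMIs. The rule took 622 of the 20216 barcodes that passed the limits on UMIs, genes and mitochondrial RNA. Of these, 132 of 11238 came from the DGAT1-knockout (KO) library and 490 of 8978 from the WT library.

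B16-F10 is a pigmented mouse melanoma line, grown here as subcutaneous tumours of DGAT1-knockout or control cells and collected on day 14. Tumours were digested with collagenase D and DNase I, stained with a dead-cell dye and an antibody to CD45, and live CD45+ cells were sorted for droplet RNA sequencing. Each group had 3 tumours and gave 1 library, and no label ties a barcode to a tumour. The labels do not say whether the knockout line was 1 clone or which part of Dgat1 was edited. With 1 library per group there was no test of any difference between KO and WT: intervals below are 95% intervals that cover counting error only, and the spread between tumours or clones was not measured. A difference between the libraries therefore cannot be told apart from a difference between the tumours, the cell lines or the runs of the sort.

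Melanocytes and pigmented melanomas build melanin in melanosomes. Tyr, Tyrp1 and Dct encode the enzymes of melanin synthesis, Pmel encodes the protein of the fibrils on which melanin is laid down, and Mlana encodes a melanosome protein; Mitf and Sox10 encode transcription factors of the lineage. DGAT1 joins a fatty acid to diacylglycerol to make triglyceride, which cells store in lipid droplets. CD45, encoded by Ptprc, is carried by leukocytes and not by melanocytes, so a sort for CD45 is designed to leave melanoma cells out.

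The libraries held 202946827 UMIs (KO) and 235652476 UMIs (WT) over all barcodes, for 32285 genes. The libraries shared 25 of the passing barcode sequences. None of these was melanoma-like in both libraries, and 1 melanoma-like WT barcode was also among the passing KO barcodes. A doublet caller marked 2.98% of the passing KO barcodes and 1.97% of the passing WT barcodes. It marked 0 of the 132 melanoma-like KO barcodes and 11 of the 490 WT barcodes, which were kept.

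Genes that the rule did not use fitted the label in the summed RNA, most of which came from barcodes of at least 20000 UMIs. A shallow set rich in leukocyte RNA, described below, gave mixed values. Sox10 stood at 182 CPM (172 to 192; CPM is the UMIs of a gene for every 1000000 UMIs, with UMIs summed over the barcodes of a set) in the melanoma-like KO barcodes and at 190 CPM (185 to 195) in the WT barcodes, against 1.37 and 3.19 CPM in the other passing barcodes. After each barcode was thinned to 5000 UMIs, which left out 69 KO and 232 WT melanoma-like barcodes, Sox10 was found in 63.5% of the remaining 63 KO and 62.4% of the remaining 258 WT barcodes. Without thinning the shares in these same 63 and 258 barcodes were 98.4% and 95.4%. Over all 132 melanoma-like KO barcodes, shallow ones included, the share without thinning was 62.1%. In the other passing barcodes the thinned shares were 0.503% and 1.01%. Xist, the RNA that coats the inactive X chromosome of female cells, stood at 26.5 CPM (KO) and 32.5 CPM (WT), against 956 and 871 CPM in the other barcodes. Cdkn2a, a tumour suppressor known to be lost from the B16 line, had 2 UMIs in the KO and 5 UMIs in the WT melanoma-like barcodes, while the other barcodes held 9.81 and 10.5 CPM. Marker lists of fibroblasts, endothelium, red cells and dendritic cells had no gene with 50 UMIs in either library's melanoma-like barcodes. Their summed levels ran from 0.555 CPM (4 endothelial genes, KO) to 3.75 CPM (7 fibroblast genes, WT). Other immune lists were not empty. Genes with 50 UMIs in the library with the higher level numbered 10 of 10 macrophage, 4 of 11 T cell, 3 of 5 neutrophil, 1 of 6 NK and 1 of 4 B cell markers. Neutrophil markers summed to 4.30 CPM (KO) and 11.3 CPM (WT), and B cell markers to 0.416 and 3.51 CPM.

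Melanoma-like barcodes were a smaller share of the KO library. They made 1.18% of passing barcodes there (0.984 to 1.39) and 5.46% in the WT library (4.997 to 5.95). The KO share was 0.215 of the WT share (0.176 to 0.261), or 4.65-fold lower (3.83 to 5.67). Among barcodes of at least 20000 UMIs, a limit chosen after the totals were seen, the ratio was 0.316. The share is set by the sort, by how many tumour cells entered it and by how many CD45+ cells there were, and these cannot be told apart. Free RNA, read from barcodes with at most 100 UMIs, moved the same way: the 4 pigment genes made 5.88 of every 10000 UMIs in the KO library and 19.9 in the WT library, which is close to the limit of 20. At 1000 UMIs the limit is met by 2 pigment UMIs. The part of free RNA in the share was not tested.

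In both libraries the barcodes fell into a deep and a shallow set. There were 56 KO and 218 WT barcodes of at least 20000 UMIs (called large below), with medians of 121028 and 128916 UMIs and 9087 and 9338 genes. The other 76 KO and 272 WT barcodes (small) had medians of 1939 and 1761 UMIs and 1022 and 919 genes. Between 5000 and 20000 UMIs lay 7 KO and 40 WT barcodes. The large barcodes held 96.8% of the melanoma-like UMIs in the KO library and 97.1% in the WT library. Levels from summed UMIs therefore describe mainly the large barcodes, except for genes much higher in the small ones. For comparison, the other passing barcodes had medians of 11117 and 15007 UMIs. The 10 deepest barcodes held 28.8% of the KO and 8.56% of the WT melanoma-like UMIs, so a few barcodes weigh more in the KO sums.

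The pigment sum, which chose the barcodes and is given as a description, also differed by depth. Its median was 133 (KO) and 141 (WT) per 10000 UMIs in the large barcodes and 50.2 and 45.8 in the small ones. Sums of 20 to 50 were found in 39 KO and 152 WT barcodes, of 50 to 100 in 40 and 106, of 100 to 200 in 51 and 195, and of 200 to 400 in 2 and 34. A sum of 400 or more was found in 3 WT barcodes, all under 2000 UMIs. Just inside the limit, at 20 to 25, lay 10 KO and 42 WT barcodes, and just outside it, at 15 to 20, lay 24 and 72. The Cd3 limit removed 2 KO and 12 WT barcodes that met every other limit. Mitochondrial RNA left out 84 KO and 273 WT barcodes that met the UMI, gene and pigment limits, counted without the Cd3 limit. Mitochondrial UMIs made a median of 4.55% (KO) and 3.66% (WT) in the large barcodes and of 0.383% and 0.733% in the small ones.

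**Figure D1:**
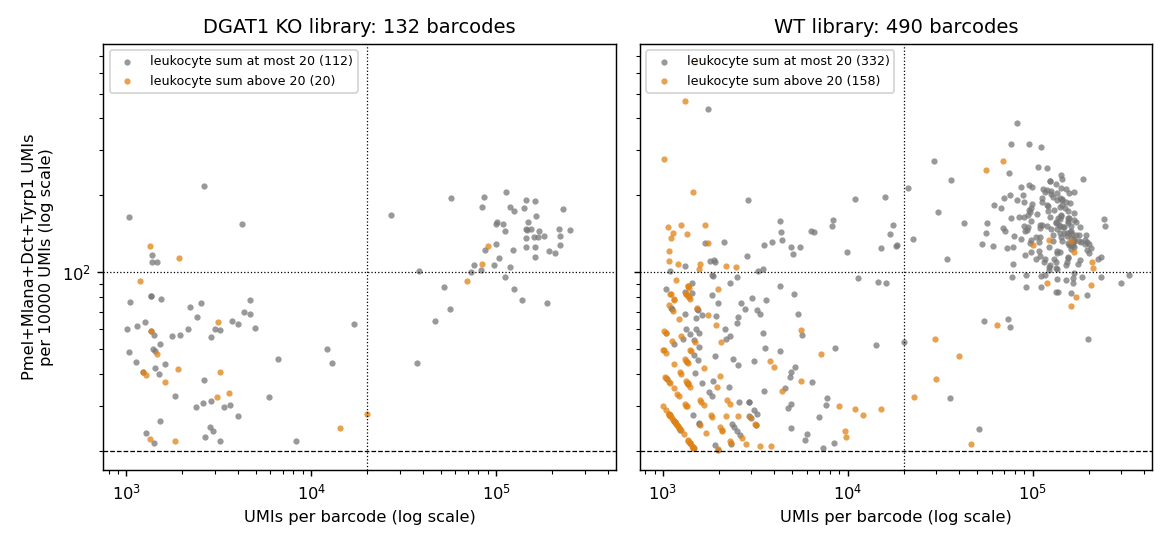
UMIs per barcode (log scale) against the summed pigment genes per 10000 UMIs (log scale) for the 132 KO and 490 WT melanoma-like barcodes, each point 1 barcode; orange marks barcodes with more than 20 leukocyte UMIs per 10000, the dashed line the pigment limit of 20, and the dotted lines 100 per 10000 and 20000 UMIs. Both libraries show a shallow group and a deep group, and orange points are mostly shallow (16 of 20 in KO and 140 of 158 in WT).

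Immune RNA was low in the summed RNA of the melanoma-like barcodes and higher in the small barcodes. Ptprc stood at 27.9 CPM (24.2 to 32.0; 201 UMIs) in the KO and 23.5 CPM (21.7 to 25.3; 669 UMIs) in the WT melanoma-like barcodes, against 1101 and 817 CPM in the other passing barcodes. Lyz2, a lysozyme of macrophages and neutrophils, stood at 76.3 CPM (70.0 to 82.9) and 73.1 CPM (70.0 to 76.3), against 1479 and 1510 CPM. Cd3e, a chain of the T cell receptor complex that the rule itself limits, stood at 1.80 CPM (13 UMIs) and 2.56 CPM (73 UMIs), against 204 and 177 CPM. The large barcodes, which hold most UMIs, stood somewhat lower on their own. Ptprc was there at 21.5 CPM (KO) and 17.5 CPM (WT), Lyz2 at 73.3 and 66.0 CPM, and Cd3e at 1.575 and 1.771 CPM. In the small barcodes, 76 of 132 in KO and 272 of 490 in WT, Ptprc stood at 222 CPM (165 to 292) in KO and 222 CPM (191 to 256) in WT, and Lyz2 at 165 CPM (117 to 227) and 307 CPM (271 to 347). The 10 barcodes with most Lyz2 held 83.8% of its UMIs in the KO library and 57.1% in the WT library.

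Thinning to 5000 UMIs left out 69 KO and 232 WT melanoma-like barcodes, all of them small, the set in which leukocyte RNA was higher. Among the remaining 63 KO and 258 WT barcodes, Ptprc was found in 9.52% (3.58 to 19.6) and 6.20% (3.59 to 9.88) after thinning. The other passing barcodes of at least 5000 UMIs had 94.9% and 91.7%. In the same 63 and 258 barcodes the shares without thinning were 49.2% and 44.6%. Over all 132 KO barcodes the share without thinning was 36.4%. Lyz2 was found in 14.3% and 19.0% after thinning and in 74.6% and 79.5% before it. Cd3e was found in 0 of 63 KO barcodes (upper bound 5.69%) and in 2.71% of WT barcodes.

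A sum over 12 leukocyte genes (Ptprc, Laptm5, Coro1a, Cd53, Rac2, Cd52, Tyrobp, Fcer1g, Lyz2, C1qa, C1qb and C1qc) split the barcodes further. It made 3.51 of every 10000 UMIs in the KO and 6.44 in the WT melanoma-like barcodes when UMIs were summed, and 9.80 and 28.5 as a mean that weights each barcode equally. The sum was at most 20 in 112 of 132 KO and 332 of 490 WT barcodes. It was above 20 in 4 of the 56 large KO and 18 of the 218 large WT barcodes, and in 16 of the 76 small KO and 140 of the 272 small WT barcodes.

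The 4 KO and 18 WT large barcodes with a sum above 20 are described here without a test: the sum contains macrophage genes, which had to be high, and the limit on Cd3 genes, which removed 2 large KO and 11 large WT barcodes, kept T cell RNA low. Their 10 macrophage markers summed to 2660 CPM (KO) and 4071 CPM (WT), against 3807 and 7242 CPM in the other passing barcodes, and no marker was at 0. In the large barcodes with a sum of at most 20 the same markers summed to 62.7 and 88.4 CPM. The 11 T cell markers summed to 18.9 CPM (5 UMIs, 6 markers at 0) and 21.1 CPM in the leukocyte-rich large barcodes, and to 21.3 and 17.2 CPM in the leukocyte-low ones. Pigment RNA was still high in the leukocyte-rich large barcodes, with medians of 99.8 and 89.8 per 10000 UMIs. Ptprc stood there at 329 CPM (264 to 406) and 125 CPM (110 to 142). Whether these droplets held a melanoma cell with a macrophage, or 1 cell with both kinds of RNA, was not tested; the doublet caller marked 0 large KO and 7 large WT barcodes.

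The small leukocyte-rich barcodes had Ptprc at 914 CPM (653 to 1245) in the KO and 577 CPM (492 to 671) in the WT library, somewhat below the other passing barcodes. Their Xist level was 526 and 642 CPM, against 16.1 and 20.01 CPM in the small leukocyte-low barcodes and 956 and 871 CPM in the other passing barcodes. Xist is used by neither the rule nor the leukocyte sum. By Xist alone, the melanoma label was not borne out for these 16 KO and 140 WT barcodes as a set. The 20 other melanocyte genes, also used by neither, went the other way. They summed to 2628 CPM (KO) and 2265 CPM (WT) there, against 370 and 479 CPM in the other passing barcodes. In the small leukocyte-low barcodes they summed to 4492 and 6272 CPM. Whether these droplets held RNA of more than 1 cell was not tested. The small leukocyte-low barcodes held Ptprc at 59.1 and 34.6 CPM and Sox10 at 145 and 220 CPM, near the Sox10 level of the large barcodes.

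The leukocyte RNA that free RNA would bring was estimated from 18 lymphocyte genes. By that measure free RNA made 1.07% (KO) and 1.16% (WT) of the UMIs in the large barcodes and 8.76% and 13.7% in the small ones. The measure counts all RNA of these genes as free, and the limit on Cd3 genes bears on it, so it is approximate. In the small leukocyte-rich barcodes the 11 T cell markers summed to 206 CPM (KO) and 494 CPM (WT). In the small leukocyte-low ones they summed to 161 and 115 CPM. A core set, with a pigment sum of at least 100 and a leukocyte sum of at most 20, held 49 KO and 206 WT barcodes with 5902601 and 22326528 UMIs. In the core, Ptprc was measured at 9.66 CPM (KO) and 9.05 CPM (WT), where free RNA would give 8.85 and 5.68 CPM. Lyz2 was measured at 21.9 and 18.7 CPM, where free RNA would give 15.7 and 18.7 CPM. Cd3e was measured at 1.36 and 1.52 CPM, where free RNA would give 2.18 and 1.67 CPM. C1qa was measured at 10.8 and 15.9 CPM, where free RNA would give 6.32 and 19.7 CPM. The limit on the leukocyte sum, which contains Ptprc, Lyz2 and C1qa, and the limit on Cd3 genes hold these core levels down, so they do not show where the remaining leukocyte RNA came from.

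**Figure D2:**
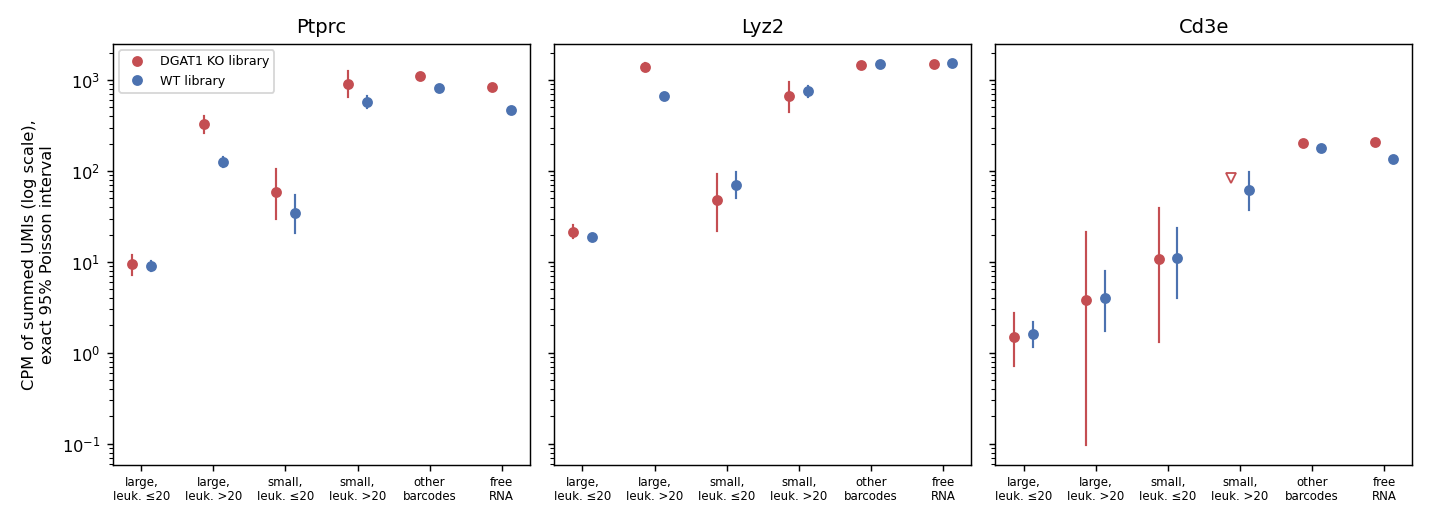
Ptprc, Lyz2 and Cd3e in CPM of summed UMIs (log scale) for large and small melanoma-like barcodes with a leukocyte sum of at most or above 20 per 10000, for the other passing barcodes and for free RNA; points are libraries, bars exact 95% Poisson intervals, and an open triangle the upper bound at 0 UMIs. The groups are split by a sum that contains Ptprc and Lyz2, so their order for these genes is set by the split; in large leukocyte-low barcodes Ptprc and Lyz2 stood at 9.38 and 21.6 CPM in KO and 9.11 and 18.7 CPM in WT.

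Dgat1 (ENSMUSG00000022555, chr15:76502015-76511953, minus strand, mm10) had fewer transcripts in the KO melanoma-like barcodes but was not absent. It stood at 17.9 CPM (129 UMIs) in KO and 27.9 CPM (794 UMIs) in WT, a log2 ratio of -0.64 (-0.92 to -0.37), and at 18.8 and 28.7 CPM in the core. Among large barcodes, 48 of 56 KO and 200 of 218 WT barcodes had a Dgat1 UMI. In the other passing barcodes, which are mostly host cells, Dgat1 stood at 45.5 CPM in KO and 39.5 CPM in WT. The reads are tags whose position relative to the edit is unknown here, so the level neither checks the label nor measures DGAT1 protein.

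Across all genes, KO and WT melanoma-like barcodes were compared where a gene had at least 50 UMIs in the library with the higher level. Of 11102 such genes, 4.62% (513) were at least 1.5-fold higher in KO and 9.24% (1026) at least 1.5-fold lower. In the core, of 10544 genes, 4.37% were higher and 8.35% lower by that fold. The median log2 ratio of all genes was -0.02 over all melanoma-like barcodes and -0.03 in the core. The excess of lower genes followed from the count limit: the KO barcodes held 7212983 UMIs and the WT barcodes 28504012, so a gene high in WT passed 50 UMIs at a lower CPM than a gene high in KO. With 1 limit of 6.93 CPM in the higher library for both directions, chosen after seeing the data, 5.21% of 9840 genes were higher (513) and 5.16% lower (508), with a median of 0.03; in the core, with 8.47 CPM, 4.98% of 9253 were higher and 4.31% lower. In what follows, higher and lower mean past 1.5-fold in these pooled sums, counts of a gene list are to be read against these shares, and core values stand beside those of all melanoma-like barcodes. Under the 1 CPM limit the lists of class I, neural crest, lipid droplet, fatty acid uptake, fatty acid oxidation, ferroptosis, immediate early and apoptosis genes each lost 1 lower gene over all melanoma-like barcodes and the immune ligands lost 2; the other pathway lists kept their counts. Macrophage RNA also moved with the libraries: 9 of the 10 macrophage markers were lower in KO over all melanoma-like barcodes (summed 171 against 417 CPM, none at 0), and 3 of 10 in the core (64.2 against 87.3 CPM). Its part in the differences below was not tested; most differences are also given in the core, where that RNA is lower.

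Promoter sequences of pigment genes were read for the M-box. This motif, bound by MITF family factors, was searched as TCATGTG and, on the other strand, CACATGA, in RefSeq promoters of GRCm38.p6 running from 250 bases before to 50 bases after each start site. It contains the shorter E-box CATGTG. Of the 24 melanocyte genes considered (the 4 of the rule and 20 others), 15 had a promoter in that table. An M-box was held by 6 of these 15 genes and by 6 of their 22 promoters, against 1165 of all 27025 genes and 3.77% of all 32851 promoters; in promoters of genes measured here the share was 2.28%. The 6 stretches below, 60 bases each and written 5′ to 3′ along the gene's strand with the M-box in capitals, are shown because they are the 6 that hold it: Tyrp1 and Dct were used by the rule, and Slc24a5 was past 1.5-fold between the libraries. Oca2 and Cited1, which also were, have no M-box in this window. A match is a description of the letters and not a measured binding site.
Tyr: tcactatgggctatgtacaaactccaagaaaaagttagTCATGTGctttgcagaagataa
Tyrp1: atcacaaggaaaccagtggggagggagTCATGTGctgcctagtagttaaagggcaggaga
Dct: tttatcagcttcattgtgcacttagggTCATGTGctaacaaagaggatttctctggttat
Trpm1: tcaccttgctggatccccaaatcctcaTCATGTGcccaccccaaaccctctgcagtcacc
Slc24a5: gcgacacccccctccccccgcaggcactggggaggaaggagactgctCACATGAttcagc
Mc1r: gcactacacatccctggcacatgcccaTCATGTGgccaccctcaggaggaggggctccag
The Tyr stretch is chr7:87493513-87493572 (minus strand), Tyrp1 is chr4:80834139-80834198 (plus), Dct is chr14:118052365-118052424 (minus), Trpm1 is chr7:64153666-64153725 (plus), Slc24a5 is chr2:125068067-125068126 (plus) and Mc1r is chr8:123407003-123407062 (plus). The first base of the M-box lies 22 bases before the start site in Tyr, 47 in Tyrp1, 151 in Dct, 142 in Trpm1, 13 in Slc24a5 (on the other strand) and 52 in Mc1r. Dct has another M-box, on the other strand and 232 bases before the start site, outside the stretch printed.

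The 4 pigment genes of the rule are given as a description, since a high level of them chose the barcodes in both libraries. Dct, at 7535 CPM in KO and 7983 CPM in WT, was the most abundant of them. Pmel stood at 2178 and 2852 CPM, Tyrp1 at 2110 and 1988 CPM, and Mlana at 1556 and 1459 CPM. Of 20 other melanocyte genes, 18 had enough UMIs, and 0 were higher and 3 lower in KO (the same counts in the core), with a median log2 ratio of -0.04 (core -0.09). The 3 were Oca2, a melanosome membrane protein of pigment synthesis, Slc24a5, a cation exchanger of pigment cells, and Cited1, a transcriptional co-regulator of melanocytes. Oca2 stood at 86.1 CPM in KO and 215 CPM in WT (log2 -1.32, -1.44 to -1.20; core -1.37). Slc24a5 stood at 376 and 577 CPM (log2 -0.62; core -0.66), and Cited1 at 326 and 651 CPM (log2 -0.998; core -0.87). Mitf at 887 and 704 CPM, Tyr at 764 and 589 CPM, and Gpnmb at 1672 and 1296 CPM leaned the other way without reaching 1.5-fold. Of the genes with an M-box stretch above, Slc24a5 alone was past 1.5-fold; Trpm1 had a log2 ratio of -0.22 and Mc1r of 0.05.

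Per barcode, Oca2 varied widely inside each library. Among large KO barcodes its quartiles were 0, 41.3 and 106 CPM, and among large WT barcodes 64.8, 139 and 336 CPM, so the middle ranges overlapped. It had a UMI in 40 of 56 KO and 205 of 218 WT large barcodes.

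Genes of the neural crest and mesenchymal state list were sparse: 10 of 19 had enough UMIs, and 2 were higher and 2 lower (core 1 and 1 of 8). Fn1, the matrix protein fibronectin, stood at 73.6 CPM in KO and 15.7 CPM in WT (log2 2.23; core 1.77), with 67.8% of its KO UMIs in 10 barcodes. Sox9, a transcription factor of the neural crest, had 2 UMIs in KO and 87 in WT, a log2 ratio of -3.46 (-6.53 to -1.56). Ngfr, the nerve growth factor receptor of neural crest-like cells, had 0 UMIs in both.

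Antigen presentation by MHC class I carries peptides from inside the cell to CD8 T cells. H2-K1, a class I heavy chain, was the class I gene with the lowest KO level relative to WT: 286 CPM against 808 CPM, a log2 ratio of -1.50 (-1.57 to -1.43; core -1.56). Among large barcodes its quartiles were 186, 289 and 357 CPM in KO and 477, 746 and 1158 CPM in WT, so the upper KO quartile lay below the lower WT quartile, and all 56 and 218 barcodes had a UMI. Tapbp and Tap2, which load and carry the peptides, stood at 63.5 against 112 CPM (log2 -0.82; core -0.82) and at 43.7 against 71.9 CPM (log2 -0.72; core -0.77). B2m, the light chain, at 2169 and 2886 CPM (log2 -0.41), and H2-D1, at 833 and 1103 CPM (log2 -0.41), stayed within 1.5-fold. Nlrc5, a transactivator of class I genes, was higher in KO at 135 against 84.6 CPM (log2 0.67; core 0.51). In all, 1 of 15 class I genes was higher and 4 lower (the fourth, H2-Q4, with 16 and 106 UMIs), with a median of -0.27; in the core 0 of 14 were higher and 3 lower, with a median of -0.21. H2 genes share long stretches of sequence with one another, so how reads were split among them is uncertain.

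MHC class II genes leaned the other way. Cd74, the invariant chain, stood at 1119 CPM in KO and 666 CPM in WT (log2 0.75, 0.71 to 0.79; core 1.02), and Ciita, the master activator of class II genes, at 19.6 and 12.8 CPM (log2 0.61; core 1.15). These were the 2 higher of 5 class II genes, and 0 were lower. H2-Aa, H2-Ab1 and H2-Eb1 had log2 ratios of 0.21, 0.04 and 0.02 over all melanoma-like barcodes and of 0.43, 0.37 and 0.43 in the core. Cd74 quartiles among large barcodes overlapped, at 347, 977 and 1570 CPM in KO and 157, 429 and 863 CPM in WT. Macrophages express these genes too: the other passing barcodes held 3048 and 2899 CPM of Cd74.

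Of 19 genes of the interferon response, 0 were higher and 3 lower over all melanoma-like barcodes, and 1 was higher and 4 lower in the core. Ifit3 stood at 144 CPM in KO and 245 CPM in WT (log2 -0.77; core -0.86), Rsad2 at 121 and 210 CPM (log2 -0.79; core -0.79) and Irf7 at 26.9 and 45.8 CPM (log2 -0.77; core -0.95). These are genes induced by interferon, with antiviral roles for Ifit3 and Rsad2. In KO, 10 barcodes held 67.9% of the Ifit3 UMIs and 66.1% of the Rsad2 UMIs.

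Genes of the integrated stress and unfolded protein responses leaned towards KO: 5 of 16 were higher and 0 lower, both over all melanoma-like barcodes and in the core, with medians of 0.38 and 0.31. Atf4, the transcription factor of the integrated stress response, stood at 222 CPM in KO and 139 CPM in WT (log2 0.68, 0.60 to 0.76; core 0.60). Herpud1, a gene of protein disposal at the endoplasmic reticulum, stood at 78.9 and 45.7 CPM (log2 0.79; core 0.80), and Dnajb9, an endoplasmic reticulum co-chaperone, at 24.96 and 15.4 CPM (log2 0.70; core 0.78). Trib3 stood at 42.7 and 23.5 CPM (log2 0.86; core 0.70) and Ddit4, an inhibitor of mTORC1, at 58.4 and 32.7 CPM (log2 0.83; core 0.93). In the 63 KO and 258 WT barcodes thinned to 5000 UMIs, where each barcode weighs the same, the median of the list was -0.10. Herpud1 quartiles among large barcodes were 27.6, 53.2 and 104 CPM in KO and 11.5, 25.1 and 59.7 CPM in WT.

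Hypoxia and glycolysis genes had 3 of 21 higher and 1 lower, with a median of 0.08 (core 3 of 20 and 0, 0.08). Vegfa, the vascular growth factor, stood at 133 and 72.4 CPM (log2 0.88; core 0.79), Ndrg1 at 76.9 and 36.7 CPM (log2 1.07; core 1.02) and Ero1l, an oxidase of disulfide formation, at 569 and 367 CPM (log2 0.63; core 0.62). In KO, 10 barcodes held 59.4% of the Vegfa, 70.5% of the Ndrg1 and 67.5% of the Ero1l UMIs, and the medians over large barcodes were closer: 71.7 and 45.0 CPM for Vegfa, and 182 and 190 CPM for Ero1l, for which the order turned. Nuclear genes of oxidative phosphorylation had 0 of 20 past 1.5-fold, with a median of 0.11 (core 0.18).

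Cell cycle genes had 2 of 28 higher and 3 lower, with a median of -0.06. Cyclins of the G1 to S step were the higher ones: Ccne1 at 34.7 and 22.1 CPM (log2 0.65) and Ccne2 at 15.4 and 7.37 CPM (log2 1.06). The mitotic genes Ccnb1, Ccnb2 and Ube2c were the lower ones, with log2 ratios of -0.63, -0.63 and -0.67; in the core Ube2c alone stayed past 1.5-fold (-0.61). Immediate early and heat shock genes, which respond to tissue handling, had 0 of 16 higher and 3 lower (median -0.13; core 0 and 2 of 14, -0.15), and genes of apoptosis and p53 had 0 of 13 higher and 1 lower (median -0.22; core 0 of 12 past 1.5-fold, -0.19).

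**Figure D3:**
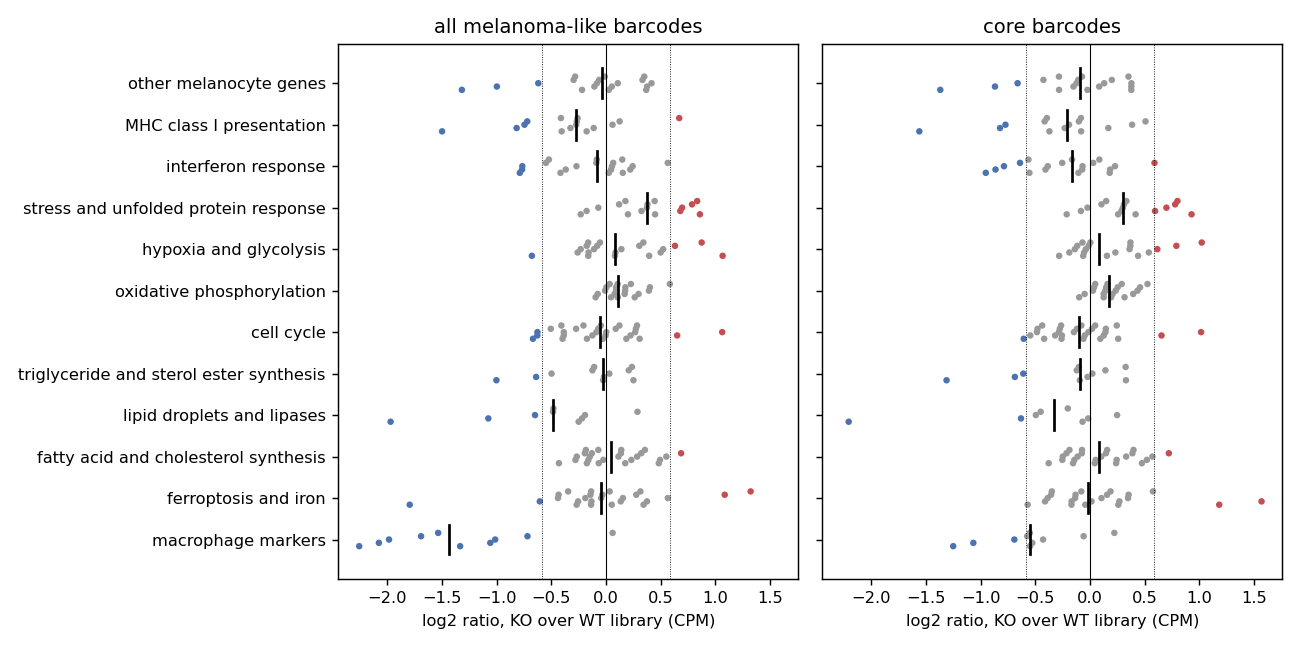
Log2 ratios, KO over WT, of the measured genes of 12 lists over all melanoma-like barcodes (left) and in the core (right); each point is 1 gene, red and blue mark genes past 1.5-fold higher or lower (dotted lines), and the black bar is the list's median. The stress list lies to the right (medians 0.38 and 0.31), and the macrophage markers move from a median of -1.44 to one of -0.55 in the core.

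Lipid genes were examined because the edited enzyme makes triglyceride. Of 11 measured genes of triglyceride and sterol ester synthesis, 0 were higher and 2 lower (3 in the core), Dgat1 itself and Agpat4, an acyltransferase earlier in the pathway (34 and 269 UMIs, log2 -1.002; core -1.31). Dgat2, which makes the same product as Dgat1, had 5 and 15 UMIs. Of 9 genes of lipid droplets and lipases, 0 were higher and 3 lower, with a median of -0.48 (core 2 of 8 lower, -0.33).

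Mgll, the lipase that splits monoglycerides, had the lowest ratio of that list: 80.0 CPM in KO and 313 CPM in WT (log2 -1.97, -2.09 to -1.85; core -2.21). Its KO UMIs came mostly from a few barcodes, 81.3% from 10, and it had a UMI in 35 of 56 large KO and 195 of 218 large WT barcodes. Quartiles over large barcodes were 0, 13.4 and 69.9 CPM in KO and 22.5, 103 and 403 CPM in WT. The other passing barcodes held 2.14 and 9.05 CPM, far below the melanoma-like level. Plin3, a lipid droplet coat protein, stood at 133 and 208 CPM (log2 -0.65; core -0.63), while the coat gene Plin2 had a log2 ratio of -0.22 (core -0.02). The third lower gene, G0s2, had 12 and 100 UMIs.

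Fatty acid oxidation had 0 of 15 genes higher and 1 lower, as in the core. Fatty acid and cholesterol synthesis had 1 of 24 higher and 0 lower, as in the core: Acaca, which makes malonyl-CoA, stood at 185 and 115 CPM (log2 0.69; core 0.72). Of 13 genes of fatty acid uptake, 1 was higher and 4 lower over all melanoma-like barcodes, and 0 of 10 and 2 in the core. Lpl, a lipase that macrophages express strongly, stood at 2.22 and 13.3 CPM (16 and 379 UMIs) with 98.4 and 247 CPM in the other barcodes, and in the core it had 4 and 58 UMIs.

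Genes of ferroptosis and iron handling, which control lipid peroxidation, had 2 of 25 higher and 2 lower, with a median of -0.04 (core 2 of 22 and 0, -0.01). Hmox1, haem oxygenase, stood at 157 and 73.9 CPM (log2 1.09; core 1.57), and Slc7a11, the cystine importer, at 19.1 and 7.65 CPM (log2 1.32; core 1.18). In KO, 76.7% of Hmox1 and 86.2% of Slc7a11 UMIs came from 10 barcodes, and the medians of Hmox1 over large barcodes were 49.5 and 42.3 CPM. Gpx4, the peroxidase that clears lipid peroxides, stood at 479 and 490 CPM (log2 -0.03, -0.09 to 0.02), and Acsl4, which feeds polyunsaturated lipids into membranes, had a log2 ratio of 0.14.

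Ligands and secreted factors that immune cells sense gave other counts in the core than over all melanoma-like barcodes. Of 11 immune ligand genes 1 was higher and 5 lower (median -0.44), but in the core 1 of 8 was higher and 1 lower (median 0.01). Lgals9, galectin 9, was lower in both sets, at 61.0 and 119 CPM (log2 -0.96; core -0.95, 360 and 2640 UMIs). Cd274, which encodes PD-L1, stood at 99.3 and 80.3 CPM (log2 0.31; core 0.37). Lgals3, which macrophages express at a high level, was lower over all melanoma-like barcodes (log2 -1.51) but not in the core (0.23), and the same held for the chemokine Ccl2 (-1.32 and -0.24). Of 10 secreted factors 3 were higher and 3 lower (core 3 and 1 of 9). Cxcl9, a chemokine that draws T cells, stood at 94.7 and 32.4 CPM (core 94.0 and 5.64 CPM, log2 4.06), with 94.9% of the KO UMIs in 10 barcodes.

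Among the genes with the most separate intervals, 12 higher and 12 lower were taken by a fixed rule from 156 higher and 392 lower genes that met it (156 and 259 with the 1 limit of 6.93 CPM, which Arhgef5, Gpm6a, Armcx1, Il17rd and Cav1 do not reach). The higher genes were Fblim1, Mtus1, Ccdc134, Prex2, Epha3, Hoxd13, Grik2, Capn6, Rarb, Agap1, Fndc3c1 and Gpr37. Fblim1, a filamin-binding adaptor, stood at 49.1 CPM in KO and 7.75 CPM in WT (log2 2.66, 2.42 to 2.91). Mtus1, a microtubule-associated protein, stood at 160 and 32.1 CPM (log2 2.32, 2.20 to 2.45), and Ccdc134 at 72.9 and 17.8 CPM (log2 2.03). Prex2, an exchange factor for Rac, stood at 102 and 26.1 CPM (log2 1.96), Epha3, an ephrin receptor, at 697 and 215 CPM (log2 1.70), and Grik2, a kainate receptor subunit, at 758 and 295 CPM (log2 1.36). Hoxd13, a homeobox factor, stood at 14.7 and 3.999 CPM (log2 1.88), and Gpr37, an orphan receptor, at 60.7 and 25.7 CPM (log2 1.24).

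The lower genes were Arhgef5, Gpm6a, Armcx1, Col4a1, Smoc1, Naalad2, Cort, Il17rd, Cav1, Sv2a, Mgst1 and Lrrc7. Arhgef5 had 0 UMIs in the 132 KO barcodes and 169 in WT. With 3 UMIs, taken over the KO melanoma-like barcodes together, standing in for 0, its level was 14.3-fold lower. The interval allows a smaller difference, as the upper bound of its log2 ratio was -3.52 (a ratio of 0.0872). Gpm6a, a neuronal membrane glycoprotein, had 0 and 166 UMIs, 14.0-fold lower on that floor (interval bound -3.49), and Armcx1 had 0 and 158, 13.3-fold lower (-3.42). Col4a1, a chain of basement membrane collagen, had 5 and 455 UMIs, and Cort, cortistatin, 22 and 1012 UMIs. Cav1, caveolin 1, had 2 and 185 UMIs, a log2 ratio of -4.55 (-7.61 to -2.68). Mgst1, a microsomal glutathione transferase, stood at 9.15 and 63.5 CPM (log2 -2.79, -3.17 to -2.44).

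In WT these genes were not spread evenly over the melanoma-like barcodes. Mtus1, chosen after its values were seen, had 0 UMIs in 170 of the 218 large WT barcodes, 1 or 2 in 15, and at least 3 in 33 (15.1%), with a median of 11 in those 33. In KO it had at least 3 UMIs in 47 of 56 large barcodes, 1 or 2 in 5 and 0 in 4, with a median of 15 over the 56. A limit of 3 UMIs, also chosen after seeing the data, divided the large WT barcodes into 33 with Mtus1 and 185 without, of similar median depth (124936 and 129528 UMIs) and pigment sum (144 and 140).

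The 33 WT barcodes resembled the KO barcodes in many of the other named genes, which were not used to make the split. Of the 23, 19 were past 1.5-fold between WT with and WT without Mtus1 in the direction of KO: 10 of 11 higher genes (all but Fblim1) and 9 of 12 lower genes (all but Smoc1, Cort and Lrrc7). Over the 9899 genes with at least 200 UMIs in the large KO and WT barcodes together, 3.32% were higher and 4.88% lower between these WT sets. Arhgef5, Gpm6a, Armcx1, Smoc1, Il17rd and Cav1 had fewer UMIs than that limit, so these shares do not cover them. Ccdc134 stood at 72.6 CPM in KO, 61.3 CPM in WT with and 10.3 CPM in WT without Mtus1. Epha3 stood at 704, 480 and 166 CPM, Hoxd13 at 14.5, 16.4 and 1.87 CPM, Capn6 at 30.4, 29.4 and 7.76 CPM, and Gpr37 at 61.3, 71.1 and 18.5 CPM in the same order. Arhgef5, Gpm6a, Armcx1 and Il17rd had 0 UMIs in the 33 barcodes, against 7.04, 6.87, 6.62 and 6.11 CPM in the 185. Fblim1 stood at 48.6, 6.62 and 7.80 CPM and so was high in KO alone among these 3 sets.

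Set against WT without Mtus1, KO was higher for 11 of the 11 and lower for 12 of the 12 other named genes (5.73% and 5.5% of the same 9899 genes). Set against WT with Mtus1, it was higher for 5 (Fblim1, Prex2, Grik2, Rarb and Agap1) and lower for 9 (6.46% and 4.58% of the 9899). The named genes were chosen on KO against WT, and these comparisons share the KO barcodes, so the counts describe and do not test.

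The split also divided the list genes. Several that were lower in KO were also lower in the 33 WT barcodes. H2-K1 stood at 280 CPM in KO, 497 CPM in WT with and 865 CPM in WT without Mtus1. Tap2 stood at 43.5, 44.1 and 77.2 CPM, Tapbp at 64.0, 70.1 and 119 CPM, Cited1 at 329, 262 and 726 CPM, and Ube2c at 102, 98.7 and 170 CPM.

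Others differed from both WT sets. Oca2 stood at 86.8, 212 and 215 CPM, Slc24a5 at 383, 581 and 587 CPM, and Mgll at 81.5, 260 and 325 CPM. Vegfa stood at 130, 74.2 and 71.2 CPM, Ndrg1 at 77.0, 34.8 and 35.9 CPM, Cd74 at 1127, 687 and 657 CPM, Atf4 at 218, 120 and 141 CPM, and Trib3 at 42.4, 21.6 and 23.8 CPM. Dgat1 was one of these, at 18.2 CPM in KO, 31.1 CPM in WT with and 26.9 CPM in WT without Mtus1 (127, 127 and 634 UMIs). Macrophage RNA moved with the split as well, C1qa standing at 180 CPM with and 69.9 CPM without Mtus1; its part in the split was not tested, and the labels give no map of these barcodes to tumours.

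**Figure D4:**
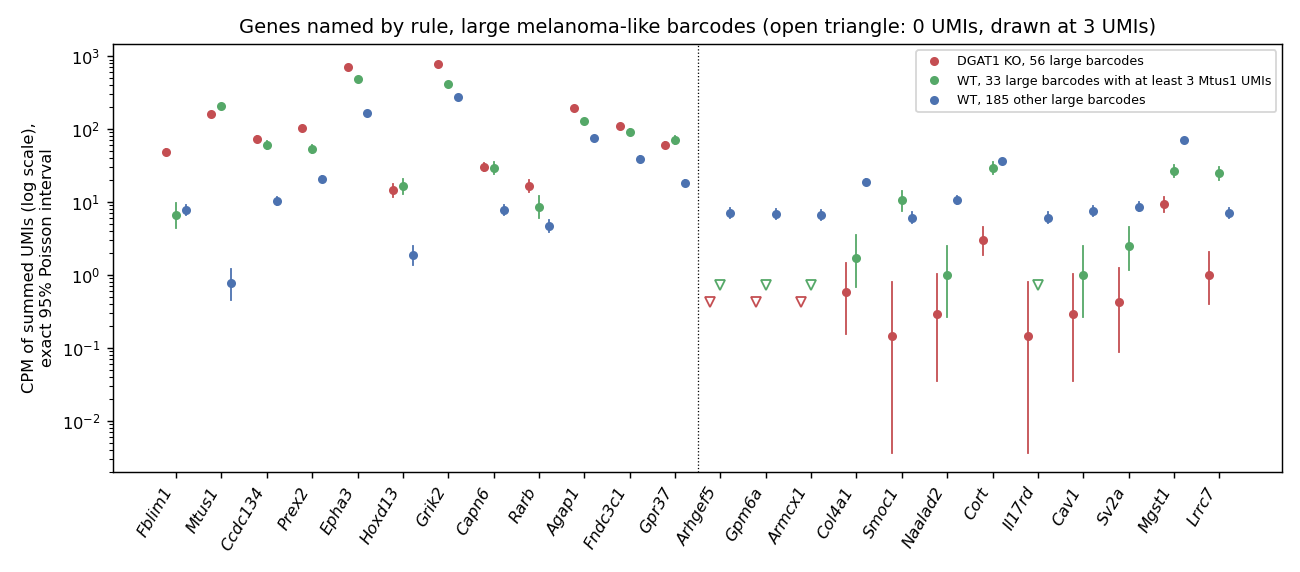
CPM of summed UMIs (log scale) for the 12 higher (left of the dotted line) and 12 lower named genes in the 56 large KO barcodes, the 33 large WT barcodes with at least 3 Mtus1 UMIs and the other 185; bars are exact 95% Poisson intervals and open triangles mark 0 UMIs, drawn at 3. For Ccdc134 the WT barcodes with Mtus1 (61.3 CPM) lie near KO (72.6 CPM), and for Fblim1 they lie near the other WT barcodes (6.62 and 7.80 CPM).

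Differences between the libraries were also gathered by chromosome. Over genes with at least 200 UMIs in the library with the higher level, the median log2 ratio KO over WT was -0.05 for all 7855 genes, 0.18 for the 427 genes of chromosome 1, -0.17 for the 695 genes of chromosome 2, -0.15 for the 417 genes of chromosome 17 and -0.13 for the 233 genes of the X chromosome. In the other passing barcodes the medians were 0.02, 0.01, -0.002 and -0.04 for those 4 chromosomes, so the other cells of the same libraries did not show them at that size. Chromosome 7, with 479 genes, had a median of -0.13, as X did, and -0.06 in the other passing barcodes. With the 1 limit of 6.93 CPM the melanoma-like medians were 0.03 for all genes, 0.23 for chromosome 1 and -0.13 for chromosome 2. They were -0.04 for chromosome 7, -0.09 for chromosome 17 and -0.06 for X. H2-K1, Tap2 and Tapbp lie on chromosome 17, and Prex2 and Agap1 on chromosome 1.

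The medians of several chromosomes, 1, 17 and X among them, moved with the Mtus1 split. In large barcodes, chromosome 1 had a median of 0.25 for KO over WT without Mtus1, 0.18 for WT with over WT without, and 0.08 for KO over WT with Mtus1. Chromosome 17 had medians of -0.10, -0.16 and 0.05 in that order, and the X chromosome -0.06, -0.11 and 0.05. The X chromosome was not particular in this: chromosome 7 had -0.07, -0.09 and 0.04, and chromosome 11 had -0.035, -0.106 and 0.073. Chromosome 2 had medians of -0.12, -0.01 and -0.11, so its genes stood lower in KO than in either WT set. The medians over all 9899 genes were 0.02, -0.04 and 0.06. The copy number of these chromosomes was not measured.

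**Figure D5:**
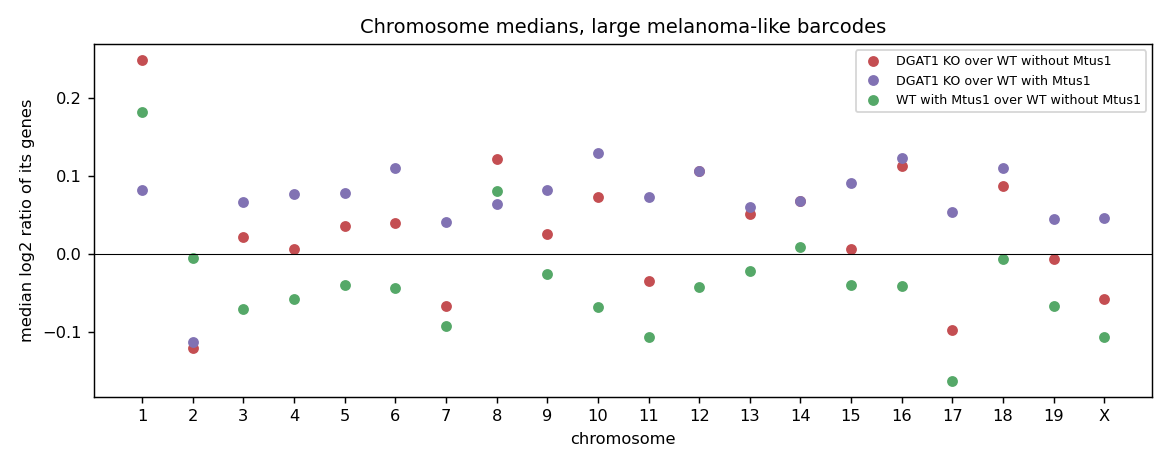
Median log2 ratio of the genes of each chromosome in large melanoma-like barcodes for KO over WT without Mtus1, KO over WT with Mtus1, and WT with over WT without Mtus1; each point is 1 chromosome's median. Chromosome 1 stands high at 0.25 and 0.18 and chromosome 17 low at -0.10 and -0.16 in the comparisons with WT without Mtus1, and chromosome 2 is low in both comparisons of KO.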

How the data were processed

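The raw UMI counts per gene and barcode were deposited by the authors for 1 KO and 1 WT library. They were made with Cell Ranger 7.2.0, per the file headers, on mm10, per the submitters' processing notes. The sources used here give no annotation or filters. Gene positions are from GENCODE M21. The barcodes and gene lists were chosen with earlier results of these data known.

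UMIs were summed over barcodes and scaled to CPM (1000000 UMIs). Intervals are exact Poisson, binomial or conditional binomial intervals at 95% and cover counting error only. Genes needed 50 UMIs in the library with the higher level; the fold limit was 1.5. A single CPM limit, that of 50 UMIs in the KO library, was an alternative. Named genes had to be past that fold, with at most 50% of UMIs in 10 barcodes and a level at least that of the other barcodes of the library, and were ranked by the interval bound nearest 0, 12 each way, without mitochondrial, ribosomal, haemoglobin, immune receptor, unnamed, Xist and Y-linked genes. The rule used all melanoma-like barcodes because the core held under 50 KO barcodes. Ddit3 and Aldoa occur under 2 gene identifiers each and were not measured. Doublets were called with Scrublet (scanpy 1.11.5) and kept. Python 3.11.15, numpy 2.4.6, scipy 1.17.1 and pandas 2.3.3 were used. The ratio interval was tried on simulated Poisson counts. These leave out the spread between barcodes, so they do not check the comparison of KO and WT. The Mtus1 split, the single CPM limit, the limit of 20000 UMIs and the core as an alternative were chosen after seeing the data. The values of 1 gene of the interferon list are not reported here.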

Additional observations from a re-analysis of the deposited data

How the results depend on the processing

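No paired analysis was possible because each group had 1 library, and no replicate could be left out. The share ratio KO over WT, 0.215, was 0.316 at 20000 UMIs or more and 0.270 with a leukocyte sum of at most 20, both chosen after seeing the data. The leukocyte sum per 10000 UMIs (KO 3.51, WT 6.44) was 9.80 and 28.5 as a mean per barcode, 2.15 and 3.53 at a pigment sum of at least 100, 2.16 and 4.36 with free RNA subtracted, 3.35 and 5.87 from 5000 UMIs, and 3.21 and 5.68 from 20000 UMIs; without doublet calls WT was 4.93. Genes higher in KO (513) numbered 970 by mean per barcode, 105 after thinning to 5000 UMIs and 263 with 200 UMIs required. Genes lower in KO (1026) numbered 2950, 521 and 507, 1567 with 20 UMIs required, and 508 with 1 CPM limit for both libraries, an alternative chosen after seeing the data (513 higher); in the core, 880 lower genes became 399. The Dgat1 log2 ratio of -0.64 was -1.19 by mean per barcode and -1.04 after thinning. The median of the stress list turned to -0.10 after thinning, and that of the immune ligand list to 0.005 in the core. A core pigment limit of 200 left 2 KO barcodes and was not run. Of the 24 named genes, 24 kept direction and fold in 7 of the alternatives, 23 by mean per barcode, and 12 of the 13 with a value after thinning. With Mtus1 limits of 1 and 5 UMIs, 17 and 19 of 23 named genes separated the WT barcodes.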
